A study of Mus musculus with 2 samples.

Results

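The 50 genes described here are 20 genes of DNA replication, used during S phase, and 30 genes of chromosome condensation, spindle assembly and division, used during G2 and mitosis (G2/M). They were taken by name, not by their values, from 15181 distinct genes in 22 tables of single interstitial cells from infarcted mouse ventricle. Of these tables, 18 describe clusters of all cells and 4 describe subclusters of the fibroblast cluster. Each table compares 1 library from PostnMCM hearts, the control, with 1 library from Yapfl/fl;Wwtr1fl/+;PostnMCM hearts. PostnMCM is a tamoxifen-inducible Cre recombinase made from the Postn locus, so recombination is directed to fibroblasts that switch on Postn after injury and not to immune cells. The second genotype adds loxP sites at both alleles of Yap1 and at 1 allele of Wwtr1, which encodes TAZ. Adult mice of both groups carried the R26-eGFP reporter and had a myocardial infarction. Both groups then ate chow with 0.4 g/kg tamoxifen, and the labels give collection 6 days after injury, whereas the study's methods give a later day. Pooling of animals is not stated in the sources used here.

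Every value below is the share of cells of a cluster with a corrected count above 0 for that gene, in percent, and differences are in percentage points. The share is not a level of expression, and it also moves with the depth of the cells. Depth and cell numbers were not in the tables used here, nor were cell barcodes, so barcodes shared by both libraries were not counted. With 1 library per group there is no replicate error, no test was made, and the values describe these 2 libraries. In the fibroblast subclusters Yap1 had a lower share in the second library only in subcluster 4 (57.5% in control and 40% in the other), and was higher in subclusters 0 (46.2% and 56.2%), 3 (23.3% and 43.5%) and 5 (30.4% and 47.6%). Wwtr1 was higher in subcluster 0 (81.4% and 90.6%) and lower in subclusters 3 (93.3% and 91.3%), 4 (80% and 60%) and 5 (100% and 85.7%). These transcripts therefore did not mark the genotype in every subcluster, so the name used for this library below, the library labelled depleted, follows its label and not these shares. By another measure, the study reports clearly less nuclear Yap and Wwtr1 protein in GFP-positive myofibroblasts of this genotype. Shares of cells with a transcript do not measure protein. Subcluster 1, which the study derives mainly from this genotype, is not among these values.

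A dividing cell copies its DNA in S phase and separates the copies in mitosis. The S genes are largely driven by E2F transcription factors, which the retinoblastoma protein family restrains. The G2/M genes are driven later by the MuvB complex with B-MYB and FOXM1, which acts through a short promoter element called the CHR, often with CCAAT boxes bound by NF-Y. After an infarct, fibroblasts and some immune cells divide within the first days. YAP and TAZ are co-activators that promote division in many cell types.

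The promoters differ between the S and G2/M genes in the letters they hold. RefSeq promoters (GRCm38.p6, 250 bases before to 50 after the start) matched 41 of the 50 genes, 16 S and 25 G2/M. The CHR letters TTTGAA, searched on both strands, lay in 18 of the 25 G2/M promoters (72%), in 2 of the 16 S promoters (12.5%) and in 20.2% of all 27025 genes of that table. The CCAAT letters lay in 20 G2/M promoters (80%), in 11 S promoters (68.8%) and in 41.1% of all. E2F letters (TTTCCCGC, TTTGGCGC, TTTCGCGC or TTTGCCGC) lay in 8 S promoters (50%), in 1 G2/M promoter (4%) and in 2.6% of all. Such matches are descriptions of letters, not of binding.

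The first promoters are shown because Cdk1, Cdc20 and Ube2c were among the genes with a higher share in cluster 6, Top2a is the usual marker of dividing cells, and Pttg1 had the widest single difference of the 50 genes. Each ends at the base before the start site, reads 5′ to 3′ and has CHR and CCAAT letters of either strand in capitals. The Top2a stretch is chr11:99024190-99024309 (minus strand), Cdk1 is chr10:69352913-69353032 (minus), Cdc20 is chr4:118437344-118437463 (minus), Ube2c is chr2:164769809-164769928 (plus) and Pttg1 is chr11:43425982-43426101 (minus). No CHR, CCAAT or E2F letters were found in the Pttg1 promoter.
Top2a: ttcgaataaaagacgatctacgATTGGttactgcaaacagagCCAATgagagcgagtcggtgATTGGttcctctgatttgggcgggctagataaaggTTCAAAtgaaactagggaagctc
Cdk1: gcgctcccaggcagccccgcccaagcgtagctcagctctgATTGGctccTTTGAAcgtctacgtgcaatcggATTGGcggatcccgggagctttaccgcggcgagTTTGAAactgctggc
Cdc20: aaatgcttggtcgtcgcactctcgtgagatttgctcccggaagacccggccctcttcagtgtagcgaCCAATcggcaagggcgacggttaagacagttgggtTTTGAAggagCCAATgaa
Ube2c: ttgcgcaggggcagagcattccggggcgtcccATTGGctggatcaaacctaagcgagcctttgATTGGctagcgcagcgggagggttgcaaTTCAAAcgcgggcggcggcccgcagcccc
Pttg1: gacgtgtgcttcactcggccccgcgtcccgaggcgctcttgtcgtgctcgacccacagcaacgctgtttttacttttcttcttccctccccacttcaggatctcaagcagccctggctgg

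The S promoters below belong to genes with a lower share in cluster 6, and E2F letters of either strand are in capitals. Mcm5 is chr8:75109309-75109508 (plus strand), Hells is chr19:38930870-38930989 (plus) and Uhrf1 is chr17:56304113-56304312 (plus, one of its RefSeq starts).
Mcm5: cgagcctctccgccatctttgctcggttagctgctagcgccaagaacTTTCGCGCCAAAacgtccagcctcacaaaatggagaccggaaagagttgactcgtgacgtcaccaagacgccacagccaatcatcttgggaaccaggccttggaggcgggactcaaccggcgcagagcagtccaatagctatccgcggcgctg
Hells: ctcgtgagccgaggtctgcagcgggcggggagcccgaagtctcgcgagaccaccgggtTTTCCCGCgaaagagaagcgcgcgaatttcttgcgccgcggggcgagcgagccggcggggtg
Uhrf1: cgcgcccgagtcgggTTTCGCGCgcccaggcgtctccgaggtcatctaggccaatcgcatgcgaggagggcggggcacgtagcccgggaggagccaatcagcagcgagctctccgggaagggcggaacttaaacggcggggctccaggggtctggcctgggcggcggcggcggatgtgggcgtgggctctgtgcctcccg

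Among fibroblast subclusters 0, 3, 4 and 5, the ones with values, subcluster 3 had the highest shares of G2/M genes in both libraries. There the median share over the 30 G2/M genes was 93.3% in the control and 87% in the library labelled depleted. In subclusters 0, 4 and 5 the same median was 6.9%, 7.5% and 13% in the control and 9.4%, 10% and 14.3% in the library labelled depleted. Mki67, the proliferation marker, was in 100% of subcluster 3 cells of both libraries, against 10.3%, 10% and 13% in subclusters 0, 4 and 5 of the control and 15.6%, 10% and 19% in the library labelled depleted. Top2a, the topoisomerase that untangles sister chromosomes, was in 70% and 73.9% of subcluster 3 cells. In the other subclusters Top2a was in 11% and 18.8% (subcluster 0), 10% and 10% (subcluster 4) and 17.4% and 33.3% (subcluster 5). Clustering used these same genes, so the separation describes how subcluster 3 was formed and is no independent result.

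The S genes separated subcluster 3 far less than the G2/M genes did. Their median was 55% in the control and 52.2% in the library labelled depleted in subcluster 3, against 25.5% and 28.1% in subcluster 0, 33.8% and 20% in subcluster 4, and 17.4% and 16.6% in subcluster 5. Taking for each gene the gap between subcluster 3 and the highest other subcluster, 24 of 30 G2/M genes had a gap of at least 50 points in the control and 21 in the library labelled depleted, with median gaps of 75.2 and 63.4 points. No S gene of the 20 had such a gap in either library, and their median gaps were 13.8 and 16.2 points. Pcna, the clamp that holds DNA polymerase on its template, was already in 66.2%, 67.5% and 52.2% of control cells of subclusters 0, 4 and 5.

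**Figure D1:**
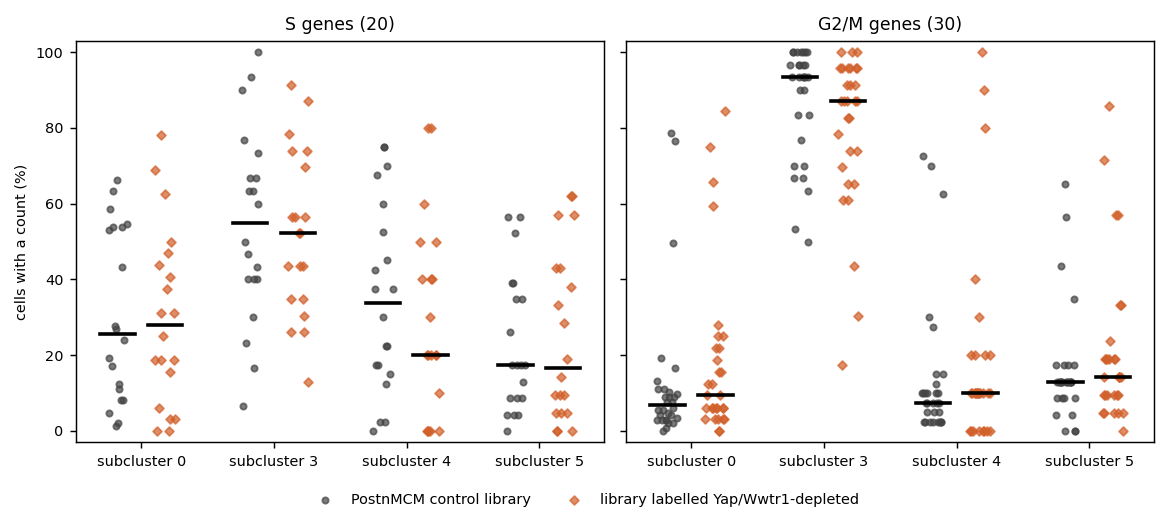
Share of cells with a count (vertical axis, %) for each S gene (left, 20 genes) and each G2/M gene (right, 30 genes) in fibroblast subclusters 0, 3, 4 and 5. Each point is a gene, grey circles are the control library, orange diamonds the library labelled depleted, and bars mark medians. The G2/M medians were 93.3% and 87% in subcluster 3 and at most 14.3% elsewhere, while the S medians were 55% and 52.2% and at most 33.8% elsewhere.

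Within subcluster 3 the G2/M genes were lower in the library labelled depleted about as often as all genes were, and none was higher by 10 points. Of the 30, all at 5% of cells or more in either library, 7 (23.3%) were lower by at least 10 points and 0 were higher by that much, with a median difference of -5.05 points. Over all 12916 genes of that table past the same 5% floor, 19.9% were lower and 15.2% were higher by at least 10 points, with a median of -0.30 points. The smallest spacing between shares was 3.3 points in the control and 4.3 points in the library labelled depleted, so the G2/M median lay close to 1 step. Genes near 100% in the control can hardly be higher in the other library. Called instead by a log2 ratio of shares of at least 1, only 1 of the 30 was lower.

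The widest differences among the G2/M genes were in Aurkb, Pttg1, Kif20b and Aurka. Aurkb, the kinase of the chromosomal passenger complex (GRCm39 chromosome 11, 68936467 to 68944764), was in 50% of control cells and 17.4% in the library labelled depleted, a difference of -32.6 points. Pttg1, securin, which holds separase in check until anaphase, was in 93.3% and 60.9%, and is described further on. Kif20b, a kinesin of cytokinesis (chromosome 19, 34899752 to 34953149), was in 70% and 43.5%, and Aurka, the spindle pole kinase (chromosome 2, 172198109 to 172212849), in 53.3% and 30.4%. These 4 genes were lower by at least 20 points, as were 5.77% of all genes of the table, while 3.69% were higher by that much.

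The other genes lower by at least 10 points were Cenpe, a kinetochore motor (93.3% and 78.3%), Ckap2, a spindle protein (96.7% and 82.6%), and Cdca8, borealin (100% and 87%). Aurkb and Cdca8 belong with Birc5, survivin, to the chromosomal passenger complex, but Birc5 was in 100% of cells of both libraries. The cyclins and their kinase differed by less than 10 points. Ccna2 was in 96.7% and 87%, Ccnb1 in 90% and 87%, Ccnb2 in 100% and 91.3%, and Cdk1 in 90% and 82.6%. The anaphase genes Cdc20 (93.3% and 95.7%) and Ube2c (83.3% and 87%) were higher by less than the 4.3 points of 1 step. The spindle checkpoint kinases Bub1 (66.7% and 60.9%) and Bub1b (76.7% and 69.6%) were lower by 1 to 2 steps.

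The remaining G2/M genes in subcluster 3 also stayed within 10 points. The centromere histone Cenpa was in 100% and 91.3% of cells and the kinetochore protein Cenpf in 96.7% and 95.7%. Among spindle genes, Kif11 (63.3% and 65.2%), Nusap1 (66.7% and 65.2%), Tpx2 (100% and 95.7%), Tacc3 (93.3% and 91.3%) and Hmmr (93.3% and 87%) were close between libraries. Kif23, of the midbody, was in 83.3% and 73.9%, and Cdca3 in 93.3% and 95.7%. Smc4, of condensin (96.7% and 95.7%), Stmn1, which destabilises microtubules (100% and 95.7%), and Hmgb2, a chromatin protein (96.7% and 100%), were in nearly all cells of both libraries.

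The S genes of subcluster 3 went both ways. Of the 20, 7 were lower and 3 higher by at least 10 points, with a median difference of -1.95 points, beside the same 19.9% and 15.2% of all genes. Without the S genes picked by hand for uses outside division (Pcna, Dut, Rrm1, Slbp, Tipin and Rfc2), the S median was 6.7 points, in the opposite direction. Gins2, of the helicase complex that opens replication forks (chromosome 8, 121305372 to 121316043), was the S gene with the widest difference, at 66.7% in the control and 43.5% in the library labelled depleted. Pcna was in 73.3% and 56.5%, Uhrf1, which keeps DNA methylation through replication, in 60% and 43.5%, and Hells, a chromatin remodeller, in 46.7% and 34.8%. Of the genes for nucleotide supply, Dut (93.3% and 78.3%) and Rrm1 (100% and 87%) were lower, Rrm2 was higher (40% and 52.2%) and Tyms was nearly level (90% and 91.3%).

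Subunits of one helicase did not move together. The MCM complex, which unwinds DNA, is built from Mcm2 to Mcm7 in equal numbers. Mcm2 was lower in the library labelled depleted (40% and 26.1%) and Mcm4 slightly lower (40% and 34.8%). Mcm3 (30% and 43.5%) and Mcm6 (63.3% and 73.9%) were higher by at least 10 points. Mcm5 (43.3% and 52.2%) and Mcm7 (66.7% and 73.9%) were higher by less. Cdc6 (6.7% and 13%) and Cdt1 (23.3% and 30.4%), which load the helicase, and Cdc45 (16.7% and 26.1%), which acts in it with Gins2, differed by less than 10 points. The remaining S genes, Slbp (50% and 56.5%), Tipin (63.3% and 56.5%) and Rfc2 (76.7% and 69.6%), differed by under 10 points.

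**Figure D2:**
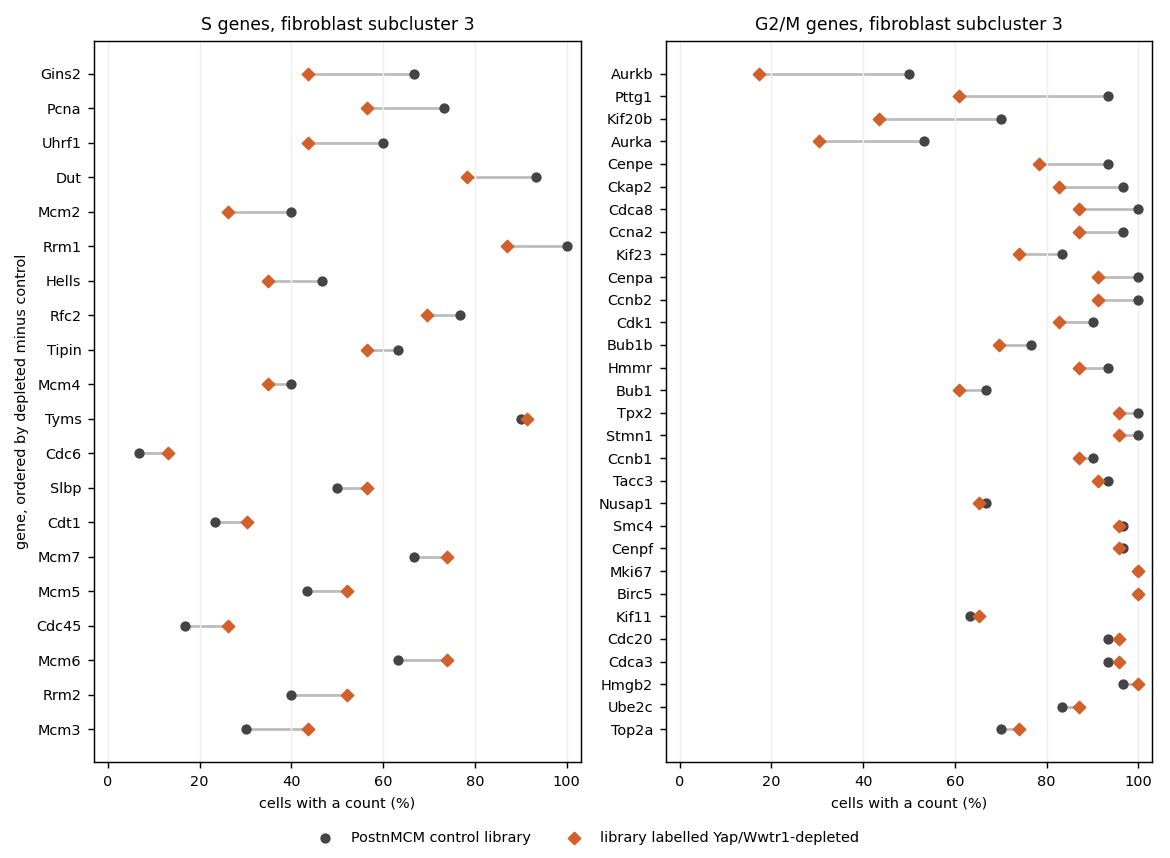
Share of subcluster 3 cells with a count (horizontal axis, %) for the 20 S genes (left) and 30 G2/M genes (right), ordered by the difference between libraries. Grey circles are the control library and orange diamonds the library labelled depleted. Aurkb, Pttg1, Kif20b and Aurka are lower by at least 20 points, no G2/M gene is higher by 10, and the S genes lie on both sides.

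RNA of other cell types also differed between the libraries of subcluster 3, and its part in these results was not tested. The fibroblast markers Col1a1, Col1a2, Col3a1 and Dcn were in 100% of cells of both libraries, while Pdgfra (66.7% and 87%) and Lum (26.7% and 47.8%) were higher in the library labelled depleted. Neutrophil markers had a mean share of 48% in the control and 25.2% in the library labelled depleted (4 of 5 lower by at least 10 points), macrophage and monocyte markers 50.6% and 39.1% (3 of 6 lower), and erythroid markers 27.8% and 2.9% (3 of 3 lower). T cell markers had 6.7% and 18.2% (2 of 5 measured higher, with Cd3d in 10% and 39.1%), endothelial markers 21.7% and 28.2%, mural markers 5.6% and 8.7%, cardiomyocyte markers 5.8% and 1.1%, and B cell markers 2.5% and 3.2%, with Ms4a1 at 0. Of dendritic cell markers 2 were measured (means 40% and 17.4%), and of natural killer cell markers only Gzma (16.7% and 4.3%).

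In subclusters 0, 4 and 5 more G2/M genes were higher than lower by at least 10 points. In subcluster 0, 23 of 30 reached 5% of cells, and 6 (26.1%) were higher and 1 (4.3%) lower by that much, beside 12.6% higher and 11.5% lower among all genes of that table. In subcluster 4, 25 reached 5%, with 5 (20%) higher and 1 (4%) lower, beside 27.7% and 22.8%, and their median of 2.5 points was 0 with no floor on low shares. In subcluster 5, 28 reached 5%, with 8 (28.6%) higher and 1 (3.6%) lower, beside 26.4% and 17.8%. The share of G2/M genes that were higher was thus below or near that of all genes in subclusters 4 and 5. Shares of the library labelled depleted in subcluster 4 came in steps of 10 points, so there a call of 10 points is a single step. By a log2 ratio of at least 1, subcluster 5 had 4 higher and 3 lower.

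Hmgb2, Stmn1, Smc4, Cdk1 and Pttg1 differed by more than 20 points in at least 1 of these subclusters. Hmgb2 was higher in subclusters 4 (70% and 100%) and 5 (56.5% and 85.7%), but lower in subcluster 0 (78.6% and 65.6%). Stmn1 was higher in subclusters 0 (49.7% and 75%) and 5 (34.8% and 57.1%), and Smc4 in subcluster 4 (62.5% and 90%). The mitotic ubiquitin enzyme Ube2c was higher in subclusters 0 (9% and 25%) and 5 (17.4% and 33.3%). Cdk1 was lower in subcluster 5 (43.5% and 14.3%), the one G2/M gene lower by 10 points there. Pttg1 was the only one of the 30 that was higher by at least 20 points in all of subclusters 0, 4 and 5.

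The S genes of subclusters 0, 4 and 5 went different ways. Subcluster 0 had 3 lower and 3 higher of 17 at 5% or more (17.6% each, beside 11.5% and 12.6% of all genes). Subcluster 4 had 8 lower (44.4%) and 3 higher (16.7%) of 18, beside 22.8% and 27.7%, so lower S genes were more frequent there than lower genes overall. Subcluster 5 had 1 lower (6.2%) and 5 higher (31.2%) of 16, beside 17.8% and 26.4%. Mcm6 was lower in subcluster 0 (53.1% and 31.2%) but higher in subclusters 4 (37.5% and 50%) and 5 (34.8% and 61.9%). Mcm7 was higher in subclusters 0 (26.9% and 37.5%) and 5 (8.7% and 33.3%) but not in subcluster 4 (45% and 40%). Mcm3 was lower in subcluster 0 (17.2% and 3.1%) and within 1 to 2 steps in subclusters 4 (17.5% and 20%) and 5 (13% and 19%).

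The rest of the MCM genes and Pcna were level or lower in these subclusters, apart from 2 higher values in subcluster 0. Mcm2 was in 19.3% and 18.8%, 37.5% and 30%, and 17.4% and 14.3% of cells of subclusters 0, 4 and 5. Mcm4 was in 24.1% and 31.2%, 30% and 20%, and 17.4% and 9.5%, and Mcm5 in 11% and 18.8%, 15% and 0%, and 8.7% and 0%. Pcna was in 66.2% and 62.5%, 67.5% and 60%, and 52.2% and 42.9%.

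Markers of other cell types differed between the libraries of these subclusters as well, and their part in the S and G2/M values was not tested. Neutrophil markers had mean shares of 51% and 20.6% in subcluster 0, 48% and 24% in subcluster 4, and 41.7% and 28.6% in subcluster 5. Macrophage and monocyte markers had 55.2% and 34.4%, 54.2% and 41.7%, and 42.8% and 33.3%, although C1qa (67.5% and 80%) and Csf1r (57.5% and 70%) were higher in subcluster 4 and Csf1r (13% and 23.8%) in subcluster 5. Erythroid markers had 27.8% and 2.1%, 30% and 0%, and 17.4% and 0%. T cell markers went the other way, with 6.1% and 11.2%, 5% and 22%, and 2.6% and 19.1%. Mural markers had 6% and 16.7% in subcluster 0, 5% and 10% in subcluster 4, and 15.9% and 1.6% in subcluster 5. Endothelial markers had 29.6% and 32.8%, 30% and 27.5%, and 15.2% and 8.3%. Fibroblast markers had 79.1% and 84.4%, 87.5% and 86.7%, and 97.8% and 96.8%, with Pdgfra in 38.6% and 71.9% of cells in subcluster 0. B cell markers had means of 2.4% to 5.4%, cardiomyocyte markers 0.8% to 8.1%, and the 2 dendritic cell markers measured 26.6% to 42.5%. Gzma, the natural killer cell marker measured, was in 10.3%, 12.5% and 17.4% of control cells and in 0% in the library labelled depleted.

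In the tables of the 18 clusters, the 50 genes were listed 94 times, in 16 of the clusters. These tables hold only genes that reached 25% of cells in either library and a fold size limit set by the authors, so a listed gene was chosen for a difference and a gene that is missing has no value. Of the 94 listings, 47 were lower in the library labelled depleted by share, 44 higher and 3 equal. The S genes had 29 lower and 14 higher among 43 listings, and the G2/M genes 18 lower, 30 higher and 3 equal among 51. These totals include listings that reached 25% in 1 library only, whose direction was fixed by the limit. Such listings were 1 of 29 in cluster 6, 5 of 10 in cluster 9, 7 of 10 in cluster 17 and 8 of 9 in cluster 18. Of all 15431 listings, 49.9% were lower and 45.4% higher, and the lower share ranged from 22.9% to 67.5% between clusters. Clusters 2 and 13 listed none, and Cdt1, Ccna2, Aurka, Bub1, Tpx2, Kif11, Kif20b and Hmmr appeared in no cluster. Clusters 6, 9, 10, 17 and 18 held the most listings, and their control shares were coarse, with a smallest spacing of 3.7 points or more. By the study's account, cells of clusters 6, 9 and 10 came mainly from the depleted genotype. Their smallest spacing was 3.7, 5.8 and 9.0 points in the control, but 0.2 to 0.5 points in the other library. A share within a cluster does not count the cells that each library gave to it.

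**Figure D3:**
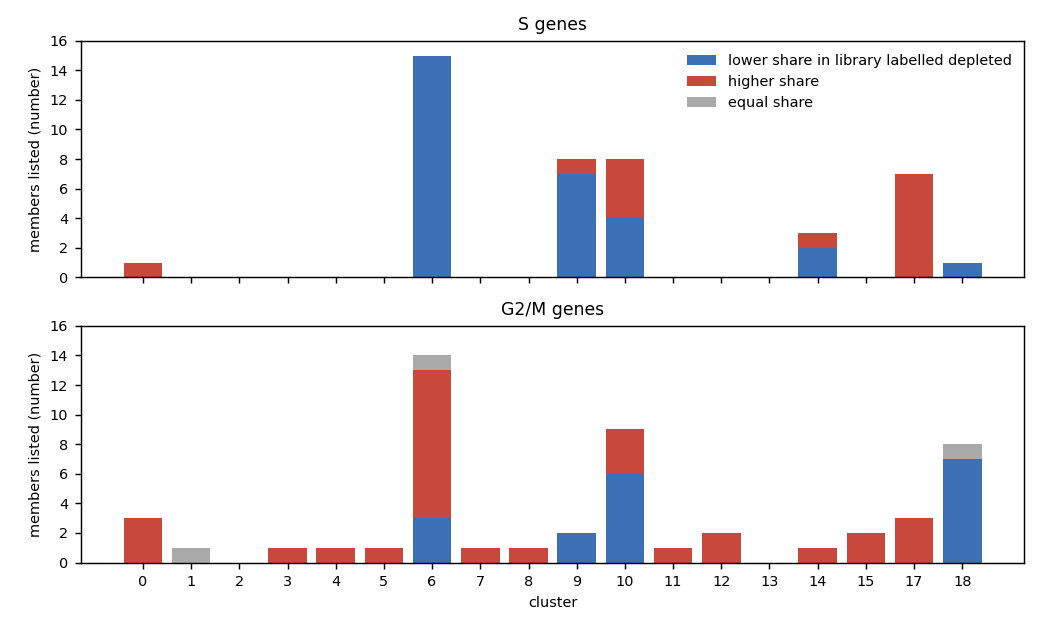
Number of S genes (top) and G2/M genes (bottom) listed for each cluster (horizontal axis), split by whether the share of cells was lower, higher or equal in the library labelled depleted. Cluster 6 lists 15 S genes, all lower, and 14 G2/M genes, 10 of them higher, while cluster 17 lists only higher shares.

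Cluster 6, which the study proposes to hold proliferative T cells, set S genes and G2/M genes apart. Most cells of this cluster came from the depleted genotype according to the study. All 15 S genes listed had a lower share in the library labelled depleted, with a median difference of -19.4 points. Of 14 G2/M genes listed, 10 were higher, 3 lower and 1 equal, with a median of 9.6 points. Among all 703 genes listed for this cluster 64.3% were lower and 33% higher, with a median of -10.6 points, so most listed genes were lower as the S genes were.

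The S genes of cluster 6 were in most control cells. The widest differences were in Hells (96.3% in the control and 67.6% in the library labelled depleted), Gins2 (59.3% and 33.2%), Rfc2, of the clamp loader (85.2% and 59.4%), Mcm4 (85.2% and 59.7%) and Cdc45 (77.8% and 55.8%). Mcm2 (77.8% and 58.3%), Mcm3 (96.3% and 76.9%), Mcm5 (92.6% and 73.2%) and Uhrf1 (100% and 83.4%) were lower by less. The helicase genes listed here were thus all lower. Pcna (100% and 88.7%), Slbp, which binds histone messages (96.3% and 87.9%), Tyms (96.3% and 89.3%), Tipin (92.6% and 86.5%), Rrm2 (100% and 95.8%) and Dut (100% and 97.5%) were closest between libraries.

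The G2/M genes of cluster 6 were mostly higher. Cdk1 was in 85.2% and 93.8%, its partner Ccnb1 in 51.9% and 62.5%, and the anaphase genes Cdc20 in 59.3% and 71.3% and Ube2c in 74.1% and 88.5%. Ckap2 (33.3% and 53%), Cdca3 (74.1% and 89%), Cenpa (59.3% and 71.3%) and Kif23 (59.3% and 71.3%) were higher by at least 12 points. Nusap1 (92.6% and 95.8%) and Cenpf (85.2% and 85.9%) were higher by less than 1 control step of 3.7 points. Ccnb2 (81.5% and 76.6%) and Cdca8 (96.3% and 95.8%) were lower by about 1 control step or less, Hmgb2 was in 100% of both, and Pttg1 was the exception, lower at 55.6% and 17.7%. Mki67 and Top2a were not listed for cluster 6.

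Other genes of each phase, from lists of 25 further S genes and 27 further G2/M genes, were also listed for cluster 6, and are read against the same 64.3% lower and 33.0% higher of all its listed genes. Of the further S genes 9 were listed and all 9 were lower, among them the replication cyclin Ccne2 (74.1% and 40.6%), while E2f8 was in 74.1% and 63.4%. Of the further G2/M genes 4 were listed and all 4 were higher, with Pimreg in 25.9% and 37.7% and G2e3 in 48.1% and 54.6%, and with Tubb4b (96.3% and 96.6%) higher by less than 1 control step. Ccne1, the G1/S cyclin, was lower (66.7% and 30.1%). Of 50 cell type markers, 4 were listed: S100a9 (59.3% and 18.6%), C1qb (33.3% and 17.2%) and H2-Aa (33.3% and 12.7%) were lower, and Cd4 was in 51.9% and 53.8%, and their part in the split was not tested.

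**Figure D4:**
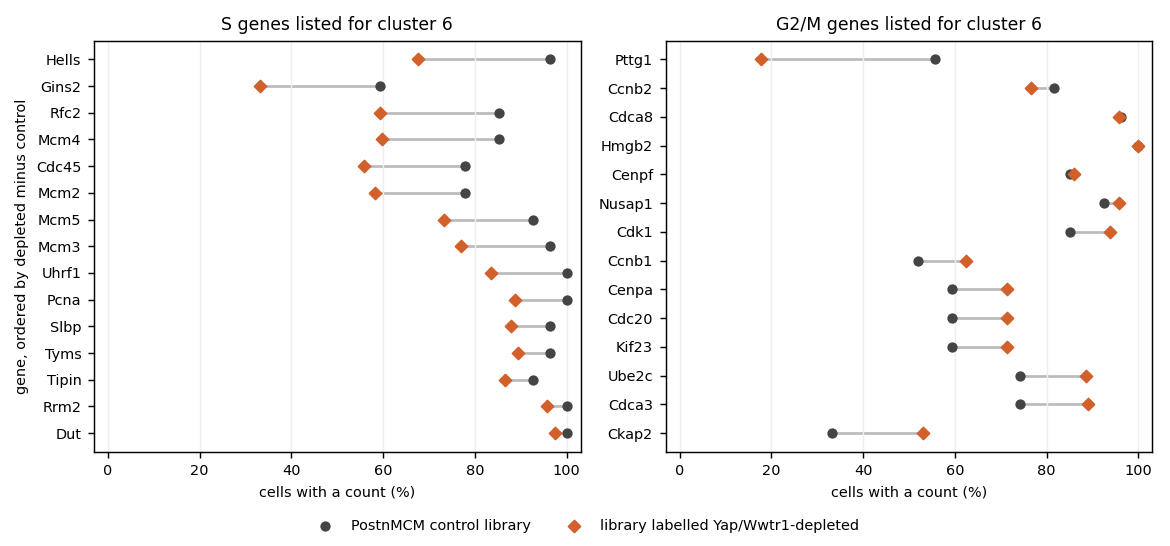
Share of cluster 6 cells with a count (horizontal axis, %) for the 15 S genes (left) and 14 G2/M genes (right) listed for it, ordered by the difference between libraries. Grey circles are the control library and orange diamonds the library labelled depleted. All S genes are lower, 10 G2/M genes are higher, and Pttg1 has a difference of -37.9 points.

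Cluster 10, which the study places with T cells and also proposes to hold proliferative ones, did not have that split. Its control shares came in steps of 9.0 points, the coarsest together with those of cluster 18. Of 8 S genes 4 were lower and 4 higher, and of 9 G2/M genes 6 were lower and 3 higher, beside 47% lower and 51.2% higher of 1691 genes listed. Mki67 was in 90.9% and 84.9% of cells.

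Cdc45 was listed for cluster 10 at 9.1% and 33.9%, reaching 25% only in the library labelled depleted, so its direction was fixed by the authors' limit. Higher shares were also found for Cdc6 (27.3% and 47.8%), Mcm3 (63.6% and 73.7%) and, by less than 1 control step, Rfc2 (45.5% and 49.5%). Mcm7 (81.8% and 80.1%), Uhrf1 (81.8% and 77.4%), Rrm1 (72.7% and 67.7%) and Rrm2 (72.7% and 64%) were lower by less than 1 control step. No S gene was thus lower in this cluster by more than 1 control step. Among G2/M genes Pttg1 (63.6% and 23.7%), Cenpe (72.7% and 55.9%) and Cdca3 (72.7% and 57.5%) were lower by more than 1 control step. Ccnb1 (54.5% and 45.2%) was lower by about 1 step, Cenpf (63.6% and 60.8%), Bub1b (45.5% and 47.8%) and Ccnb2 (72.7% and 79%) differed by less, and Ckap2 was higher (27.3% and 38.2%). Of 50 markers 10 were listed, 7 of them lower, including Col3a1 (45.5% and 17.2%), Lyz2 (54.5% and 28%) and Pecam1 (45.5% and 19.4%), and Cd3e was higher (72.7% and 94.6%). Their part was not tested.

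In cluster 9, which the study leaves without a name in its text, 7 of 8 S genes were lower, beside 64.4% lower and 33.9% higher of 1302 listed genes. Tyms was in 35.3% and 9.5%, Hells in 35.3% and 13.8%, Mcm4 in 47.1% and 25.9%, Mcm3 in 47.1% and 27.5%, Mcm5 in 35.3% and 15.9%, Dut in 64.7% and 45.5% and Tipin in 35.3% and 24.3%. Mcm6 was higher (41.2% and 51.9%). Of the 7, Tyms, Hells, Mcm5 and Tipin reached 25% in the control only, which fixed their direction. Of 2 G2/M genes listed, Top2a (35.3% and 15.9%) was likewise at 25% in the control only, and Stmn1 (94.1% and 81.5%) was lower. The 7 lower S genes were also listed for cluster 6, where their shares were higher in both libraries. Of 50 markers 5 were listed, with Col3a1 (41.2% and 16.9%), S100a8 (58.8% and 27.5%) and Gzma (82.4% and 58.2%) lower and Cd3g (94.1% and 97.9%) and Cd79b (23.5% and 38.1%) higher. Their part was not tested.

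Dendritic cells (cluster 17) were the only cluster of at least 9 listings in which every listed S and G2/M gene was higher in the library labelled depleted, 7 of 7 and 3 of 3, beside 38.8% higher and 57.5% lower of 1914 genes. Of these 10, 7 were under 25% in the control and reached the authors' limit only through the library labelled depleted, so their direction was fixed by that limit, and only Slbp, Pcna and Hmgb2 reached it in both libraries. Shares there came in steps of 5.0 points in the control and 9.0 in the other library. Mcm7 was listed at 0% and 36.4%, Dut at 15% and 45.5%, Slbp at 25% and 54.5% and Rrm1 at 5% and 27.3%. Mcm5 (15% and 36.4%), Mcm3 (15% and 27.3%) and Pcna (35% and 45.5%) were higher by less. Hmgb2 was in 35% and 63.6%, Aurkb in 5% and 27.3% and Stmn1 in 15% and 36.4%. The dendritic cell markers Flt3 (95% and 100%) and Clec9a (85% and 90.9%) were in nearly all cells, and the other 5 markers listed, of neutrophils, macrophages, fibroblasts and erythroid cells, were all lower.

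In neutrophils of cluster 18, 8 of 9 genes listed were lower and none higher, beside 59.7% lower and 36.4% higher of 1426 genes. All 8 reached 25% of cells only in the control, so their direction was fixed by the authors' limit. Hells was at 27.3% and 0%, Birc5, Ccnb2 and Tacc3 each at 27.3% and 5.9%, Kif23 and Ube2c each at 27.3% and 11.8%, Stmn1 at 27.3% and 17.6% and Cenpa at 27.3% and 23.5%. The control value of 27.3% is 3 steps of 9.0 points, the lowest share that passed the authors' limit of 25%. Hmgb2 was in 100% of both libraries here, and of both libraries of the other neutrophil cluster, cluster 1. Of 50 markers 6 were listed, among them Hbb-bs (36.4% and 0%) and Col3a1 (36.4% and 5.9%), both lower. Their part was not tested.

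The other clusters listed few of these genes, mostly Hmgb2, Smc4 and Pttg1. In macrophages and monocytes of cluster 0, Smc4 (28.4% and 44.1%), Hmgb2 (48% and 56.8%) and Pcna (49.1% and 55.3%) were higher, and in cluster 12 so were Hmgb2 (88.5% and 98.7%) and Smc4 (28.1% and 43%). Cluster 11 listed Cenpa (11.1% and 29.2%) and cluster 15 listed Hmgb2 (56.2% and 72.7%) and Smc4 (37.5% and 50%). In T cells, cluster 4 listed Stmn1 (29.9% and 43.5%) and cluster 8 listed Smc4 (60.8% and 70.8%). All of these were higher in the library labelled depleted, but Cenpa in cluster 11 reached 25% only in that library, which fixed its direction. In these tables, of clusters 0, 4, 8, 11, 12 and 15, 22.9% to 54.7% of all listed genes were lower. In that order, higher genes numbered 564 of 923, 291 of 450, 327 of 543, 299 of 729, 311 of 650 and 624 of 1376. Lower markers of cell types numbered 4 of 6, 3 of 6, 2 of 6, 10 of 11, 4 of 6 and 7 of 9. Higher markers numbered 1, 3, 4, 1, 2 and 2, and the part of these markers was not tested. Natural killer cells (cluster 14) listed Slbp (40.5% and 53.8%) and Hmgb2 (91.1% and 92.3%) as higher and Mcm6 (30.4% and 15.4%) and Pcna (29.1% and 23.1%) as lower, both at 25% in the control only. Of 970 genes listed for cluster 14, 414 were lower and 470 higher. Of 6 markers listed there, 2 were lower and 4 higher, with Col3a1 in 26.6% and 11.5% and Klrb1c in 73.4% and 100%. Their part was not tested.

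Pttg1 (GRCm39 chromosome 11, 43311071 to 43321000, minus strand) was the gene of the 50 with the widest difference in subclusters 0 and 5. Its share was lower in the library labelled depleted in subcluster 3 and higher in the other 3 subclusters. It was in 11% of control cells and 59.4% in the library labelled depleted in subcluster 0, in 10% and 40% in subcluster 4, and in 13% and 57.1% in subcluster 5. In subcluster 3 it was in 93.3% and 60.9%. In the control, subcluster 3 thus stood far above the rest, while in the library labelled depleted all 4 subclusters lay between 40% and 60.9%. Cluster 5, which holds all these fibroblasts and was normalized separately, gave Pttg1 in 12.8% and 29.4% of cells. Other genes differed between the 2 normalizations too. S100a8 was in 32.6% of control cells of cluster 5 but in 78.3% to 91% of control cells of these subclusters. Subcluster shares are thus not interchangeable with cluster shares.

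The cluster tables list Pttg1 in 6 clusters, in each of which it reached the authors' limit of 25% of cells in 1 library only, so its direction there was fixed by that limit. Pttg1 was higher in the library labelled depleted in macrophages and monocytes of clusters 0 (6.1% and 32%) and 3 (7.1% and 32%), in fibroblasts as a whole (cluster 5, 12.8% and 29.4%) and in T cells of cluster 7 (11.1% and 30.2%). It was lower in the proliferating clusters 6 (55.6% and 17.7%) and 10 (63.6% and 23.7%). In cluster 5 it was the only one of the 50 genes listed. It ranked high among all genes where it was higher, with 5 of 12856 genes having a larger difference in subcluster 0, 344 of 13449 in subcluster 4 and 56 of 12076 in subcluster 5. In subcluster 3, 96 of 12916 genes had a more negative difference. No pseudogene of at least 90% identity over 200 bases was found for Pttg1 in the annotation. Markers of other cell types differed as well, and their part was not tested. S100a9 was lower in clusters 0 (54.8% and 20.3%), 3 (57.1% and 26.8%), 5 (49.7% and 9.1%) and 7 (67.7% and 46.5%). Of the markers listed, 4 were lower and 1 higher in cluster 0, and 3 and 3 in cluster 3. In cluster 5 the counts were 2 and 4, and in cluster 7 they were 4 and 2.

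**Figure D5:**
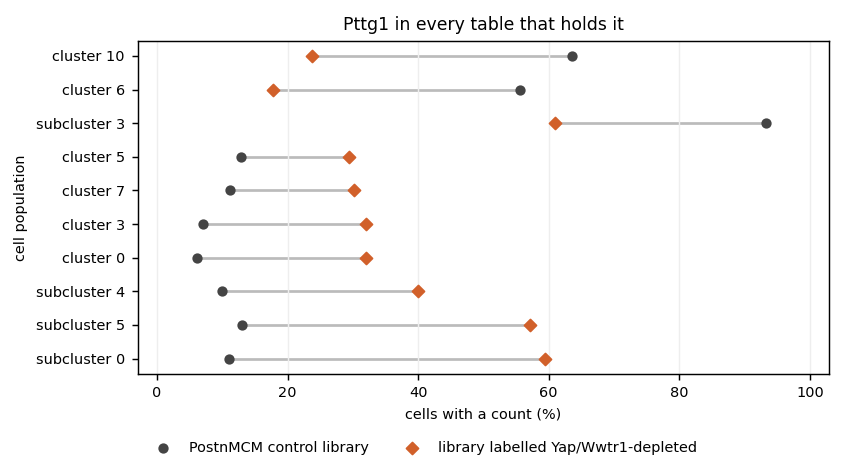
Share of cells with a count for Pttg1 (horizontal axis, %) in every cell population with a value, ordered by the difference between libraries. Grey circles are the control library and orange diamonds the library labelled depleted. Clusters 6 and 10 and subcluster 3, the proliferating populations, are lower in the library labelled depleted, and the other 7 populations are higher.

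Near-identical copies limit some of the other values. Ccnb1, Hmgb2, Mcm7, Pcna, Stmn1, Tyms, Ube2c and Uhrf1 have 18 pseudogene copies between them at 90% identity or more, and none of those copies appears in any table. Reads could be shared between these 8 genes and their copies, so their shares are uncertain to that extent.

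Further cell cycle genes of subcluster 3 are read against the 19.9% lower and 15.2% higher of all its genes. Of the further S genes 10 of 25 (40%) were lower and 3 (12%) higher by at least 10 points, with a median of -8.90 points. The late E2F repressor E2f8 was in 36.7% and 13%, and the polymerase subunit Pola1 was higher, at 43.3% and 65.2%. Of the further G2/M genes 8 of 27 (29.6%) were lower and 0 higher, with a median of -3.20 points. G2e3 was in 76.7% and 47.8%, the lamin receptor Lbr in 70% and 43.5% and the spindle gene Dlgap5 in 86.7% and 65.2%.

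G1 regulators were more often higher there. Of 15 G1 cyclins, kinases and E2F or retinoblastoma family genes, 0 were lower and 6 (40%) higher, with a median of 7.40 points. The G1 cyclin Ccnd1 was in 13.3% and 34.8%, E2f1 in 10% and 30.4% and E2f4 in 56.7% and 73.9%. Of 12 inhibitors and brakes 5 (41.7%) were lower and 2 (16.7%) higher, with a median of -7.35 points: the kinase inhibitor Cdkn1c was in 53.3% and 21.7%, Gadd45b in 53.3% and 26.1% and the anti-proliferative Btg2, higher, in 53.3% and 82.6%. Of 6 regulators of G2/M transcription 3 (50%) were lower and 1 (16.7%) higher, with a median of -10.6 points. The MuvB subunits Lin54 (40% and 21.7%) and Lin9 (26.7% and 8.7%) were lower and Lin37 (30% and 43.5%) was higher. Other subclusters did not all have these directions. The G1 regulators had 1 lower and 2 higher in subcluster 0, 4 and 6 in subcluster 4, and 4 and 3 in subcluster 5. The inhibitors and brakes had 3 lower and 2 higher in subcluster 0, 5 and 2 in subcluster 4, and 3 and 6 in subcluster 5.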

How the data were processed

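Single interstitial cells of the ventricle were sorted for viability and captured with 10x 3′ chemistry, 1 library per genotype. Per the submitters' processing notes and the study's methods, the authors used Cell Ranger 6.1.1 with a GRCm39 reference and Seurat, normalized with SCTransform, clustered both libraries together and processed fibroblasts again alone. The deposited tables give, per gene and library, the fraction of cells whose SCTransform-corrected count exceeded 0, printed here as a percent. The fold change, p-value and adjusted p-value columns are the authors' own comparison and were not used. Subcluster and cluster values come from separate normalizations and were not compared as levels. Cluster 16 and subclusters 1 and 2 were not analysed here. No doublet caller is named in the methods.

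Differences were computed as the library labelled depleted minus the control, for genes at 5% of cells or more in either library, and called at 10 points (python 3.11.15, pandas 2.3.3, tested on simulated data). Pseudogene copies were sought with minimap2 2.31-r1302 on GRCm39, and promoter letters in RefSeq sequences of GRCm38.p6. Columns that could not be mapped to a library numbered 0. Genes were named by rule: those differing by 20 points in subcluster 3, all listed in cluster tables, Mki67, Top2a, Pcna and Mcm2 to Mcm7 throughout, and the 3 widest of each further list in subcluster 3. Some genes this rule selects are not reported here. Ccne1, Ccne2, Pimreg, and values of other genes outside the rule were chosen after their values were seen. The members and all lists were chosen with earlier results of these data known. With 1 library per group no test was made, leaving out a replicate was not possible, and depth is unknown, so no interval is given. Alternatives were a call at 20 points, a log2 ratio, other floors, centring on the median of all genes, and leaving out 10 genes picked by hand for uses outside division (Hmgb2, Stmn1, Smc4, Dut, Slbp, Pcna, Rrm1, Tipin, Rfc2 and Ckap2). The stated ground does not hold for all 10, since Ckap2 is a spindle protein and was in 96.7% of control cells of subcluster 3. That pick was not made by share of cells: Ckap2 was in 3.4% of control cells of subcluster 0, and Tyms, which stayed in, was in 58.6%.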

Additional observations from a re-analysis of the deposited data

Results flagged for a closer look

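Of the 50 genes, 5 had differences of opposite sign and at least 20 points in different cell populations, each from 1 library per group, and the difference between populations was not tested. Mcm6 differed by -21.9 points in subcluster 0 and by 27.1 in subcluster 5. Cdc45 differed by -22.0 points in cluster 6 and by 24.8 in cluster 10. Slbp differed by -20 points in subcluster 4 and by 29.5 in cluster 17. Aurkb differed by -32.6 points in subcluster 3 and by 22.3 in cluster 17. Pttg1 differed by -39.9 points in cluster 10 and by 48.4 in subcluster 0. The Slbp, Aurkb and Pttg1 pairs each set a subcluster against a cluster, whose values come from separate normalizations. Cdc45 and Pttg1 in cluster 10 and Aurkb in cluster 17 reached the authors' limit of 25% of cells in 1 library only, so the sign of those 3 values was fixed by the limit.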

How the results depend on the processing

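No paired analysis was possible because only 1 library of either genotype was compared, and for the same reason no replicate could be left out. Across the alternatives, recomputed counts stayed within 1.5 times the reported count in 79 cases and did not in 39. Among recomputed medians and single genes, 33 moved little, 9 moved more and 3 changed sign. Calls at 20 points left S genes at 1 lower and 0 higher in subcluster 0 (from 3 and 3), 1 and 0 in subcluster 3 (from 7 and 3), 4 and 1 in subcluster 4 (from 8 and 3), and 3 higher in subcluster 5 (from 5). The same limit left G2/M genes at 0 lower and 2 higher in subcluster 0 (from 1 and 6), 4 lower in subcluster 3 (from 7), 0 lower and 3 higher in subcluster 4 (from 1 and 5), and 3 higher in subcluster 5 (from 8). Calls by a log2 ratio of shares of at least 1 gave S genes 1 lower and 0 higher in subcluster 0, 0 and 0 in subcluster 3, 4 and 1 in subcluster 4, and 2 and 1 in subcluster 5. That ratio gave G2/M genes 0 lower in subcluster 0, 1 lower in subcluster 3, 3 lower in subcluster 4, and 3 lower and 4 higher in subcluster 5. A ratio calls few genes that most cells use, by its construction.

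Leaving out the 10 genes picked by hand left S genes at 1 higher in subcluster 0, 4 lower in subcluster 3, 5 lower in subcluster 4, and 0 lower and 3 higher in subcluster 5. It left G2/M genes at 0 lower in subcluster 0 and 3 higher in subcluster 4, and it changed the S median of subcluster 3 from -1.95 to 6.70 points. The S median of subcluster 5 (-1.25 points) became 0.50 points with no floor on low shares and 1.95 points with a floor of 10%, and it was -5.5 points without those 10 genes and -2.25 points when centred. Centring gave 2 lower S genes there (from 1). The cause of these changes was not tested.

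In the cluster tables, a limit of 10 points left 19 lower S listings (from 29) and 11 lower G2/M listings (from 18), and without those 10 genes 7 S and 17 G2/M listings were higher (from 14 and 30). Without cluster 6, chosen after seeing the data, 14 S listings were lower. In cluster 6 itself 10 of 15 S genes were lower and 7 of 14 G2/M genes higher by at least 10 points, and 10 S and 9 G2/M genes kept these directions without those 10 genes. Relative to the median of the genes listed for cluster 6, also chosen after seeing the data, 10 S genes were lower and 13 G2/M genes higher. Shares of clusters 9, 10, 17 and 18 and of subcluster 4 rest on coarse steps, and their depth is unknown.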
